A study of Mus musculus with 2 samples.

Results

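The cells described here were the pachytene spermatocytes of the Piwil1 stage, taken from the testes of 1 WT and 1 Alkbh5-/- (KO) single-cell library of mouse. They were chosen by measured values. Each barcode with a transcript count (UMI) of fewer than 2 of 10 genes of other cell types was scored on 10 sets of 3 genes, and a barcode was a member where set A, which is Piwil1, Pou5f2 and Tdrd5, scored highest. The score of a set was the mean over its genes of the standardised ln(1 + UMIs per 10000). This selected 1004 of 12768 barcodes, 356 of 5756 in WT and 648 of 7012 in KO. The excluding genes were Insl3, Cyp17a1, Cst9, Cldn11, Crabp1, Dmrt1, Prdm9, Rad51ap2, C1qa and C1qb, which together mark Leydig cells, Sertoli cells, spermatogonia, early spermatocytes and macrophages. They removed 365 barcodes of WT and 2734 of KO before any score was compared.

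The study asked what loss of Alkbh5, which encodes a demethylase that removes N6-methyladenosine (m6A) from RNA, does to spermatogenesis. The WT group was testis of wild-type mice, and the KO group was testis of mice that lacked Alkbh5 in every cell, so that a change in germ cells cannot be told apart from an effect of the somatic cells around them. Both groups were adult animals on the C57BL/6 background, 12 weeks old where the methods give an age. The sources differ on the animals: the methods name 3 per genotype for the dissociation, and elsewhere the study speaks of 1 mouse of each. Each genotype was 1 library, which may hold pooled animals. No difference between WT and KO could therefore be tested. The intervals below are exact 95% intervals and cover counting error only.

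In pachytene of the first meiotic prophase, homologous chromosomes are fully paired along the synaptonemal complex, and crossovers mature. Transcription of autosomal genes rises to a high level, with many transcripts stored for later use, while the unpaired X and Y chromosomes are silenced in a compartment called the sex body. Piwil1 encodes MIWI, the PIWI protein that binds the pachytene piRNAs. Tdrd5 encodes a Tudor domain protein of the same pathway, and Pou5f2 encodes a POU domain transcription factor of the testis.

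The label did not hold for all of the members, and was weaker in KO. A UMI of a set A gene was present in 312 of the 356 WT members and in 376 of the 648 KO members. A barcode without a UMI of a set does not score the same for each set, and set A had the least negative such score, -0.272 against -0.520 for set B (Pabpc6, Nutm2 and Ccna1). Barcodes in which hardly any of the 30 genes was detected thus became members by default. Of the WT members, 44 (12.4%) had no UMI of any set A gene, and of the KO members 272 (42.0%) had none. Of these, 15 in WT and 101 in KO had no UMI of any of the 30 genes. The plot of the scores of the Piwil1-stage barcodes shows them as a spot at the lower left corner.

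**Figure D1:**
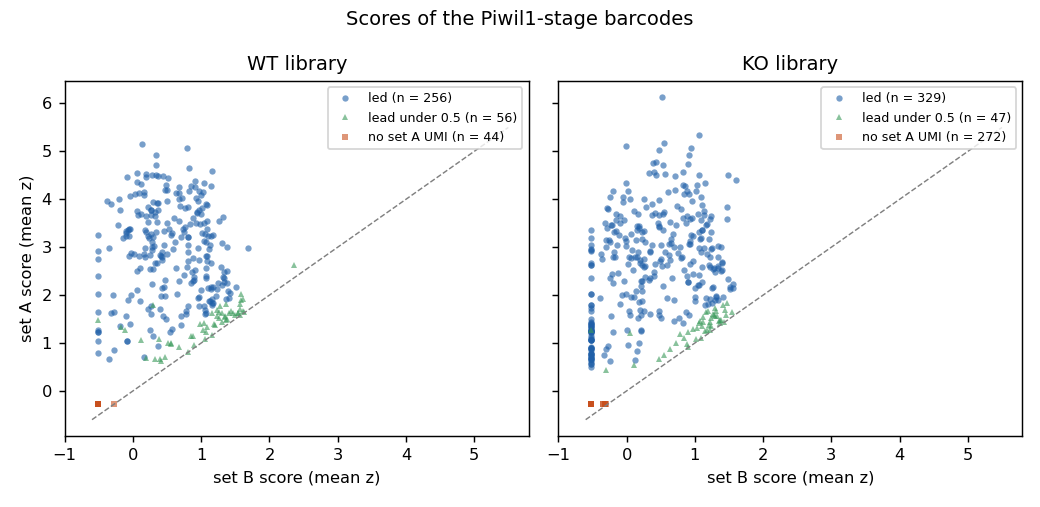
Set A score (vertical, mean z) against set B score (horizontal, mean z) of the 356 WT and 648 KO members, 1 point per barcode, with the line of equal scores dashed. Circles are barcodes in which set A led by at least 0.5 (256 in WT and 329 in KO), triangles those with a smaller lead, and squares those without a set A UMI (44 and 272, all at a set A score of -0.272). The column of points at the left edge is barcodes without a set B UMI.

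The members without a set A UMI did not carry pachytene transcripts at the level of the others. The 16 pachytene genes that the rule did not use, among them the lactate dehydrogenase gene Ldhc and the chaperone genes Hspa2 and Clgn, summed to 2675 CPM, which are UMIs per 1000000 UMIs of the same barcodes, in these members of WT and 1858 CPM in those of KO. In barcodes with both Leydig markers, which are not germ cells, the same sum was 2362 and 1987 CPM. In other barcodes that are not germ cells the sum was higher, at 3565 and 2879 CPM with both Sertoli markers and 6323 and 7077 CPM with both macrophage markers. The level of these transcripts outside germ cells thus differed between classes. Whether free RNA of other cells or mixed barcodes brought them there was not tested. Where set A led by at least 0.5, the sum was 16519 and 15567 CPM. These barcodes, 256 in WT and 329 in KO, are called led barcodes below, and all of them had a set A UMI. Their use for the account of the stage was chosen after the members without a set A UMI were seen.

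What the members without a set A UMI held instead differed from barcode to barcode. At least 3 of the 10 spermatogonia markers had a UMI in 16 of 44 in WT and in 109 of 272 in KO, and at least 3 of the 15 genes of the synaptonemal complex and chromosome axis did in 39 and 203. At least 3 of the 10 Leydig markers did in 1 and 63. These barcodes were shallow, with a median of 6541.5 UMIs in WT and 6032 in KO against 18703.5 and 13597 in the led barcodes. Mitochondrially encoded genes took 5.16% and 6.10% of their UMIs against 1.59% and 2.48% in the led barcodes. They are called members without a set A UMI and given no cell type name.

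The share of barcodes at this stage depended on them. All members were 6.18% (5.58 to 6.84) of the WT barcodes and 9.24% (8.57 to 9.94) of the KO barcodes, a ratio of 1.49 (1.31 to 1.71). The led barcodes were 4.45% (3.93 to 5.01) and 4.69% (4.21 to 5.21), a ratio of 1.05 (0.893 to 1.25). With any set A UMI the counts were 312 and 376. The ratio was then 0.989 (0.849 to 1.15), so the higher KO share over all members was not seen and no direction could be read. Of the barcodes left after the excluding genes, the members were 6.60% in WT and 15.1% in KO. The excluding genes removed 6.34% of the WT library and 39.0% of the KO library, and a share depends on every other cell type that a library holds.

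At the edge of the rule, the 5 closest members with a set A UMI led by 0.000514 to 0.0293 in WT and by 0.00117 to 0.0467 in KO. The 5 closest barcodes outside it had leads of -0.0182 to -0.0530 and of -0.00950 to -0.0469. Set B, of the Pabpc6 stage, was the second highest set in 278 of the 356 WT members and in 229 of the 256 WT led barcodes. In KO it was second in 299 of 648 members and in 253 of 329 led barcodes, and set E was second in 324 members and 60 led barcodes. Without a UMI, set E (Cd46, Dyrk4 and Tmco5b) scored -0.336, the least negative after set A. Set E could thus be second by default. Scrublet, which marks barcodes that look like mixtures of 2 cells, called 14 of 356 members in WT and 17 of 648 in KO, and 6 and 10 of the led barcodes. The libraries share 45 barcode sequences. No such sequence was a member in both.

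The rule genes themselves, whose levels are a description because they chose the cells, had these values. Piwil1 had 1129 UMIs over the WT led barcodes (221 CPM) and 1226 over those of KO (232 CPM), with a UMI in 238 of the 256 WT led barcodes. Pou5f2 had 255 and 213 CPM, with a UMI in 185 of 256. Tdrd5 had 104 and 116 CPM, with a UMI in 205 of 256. In the 93 WT Leydig barcodes, whose median depth was 10122 UMIs and which should lack these genes, Piwil1 had 1 UMI and the others 0. All 3 genes were detected in 140 of 256 led barcodes of WT and in 124 of 329 of KO, and only 1 of them in 24 and 78, so that the KO led barcodes rested more often on a single gene. In the Pabpc6 stage, here its 383 WT and 268 KO barcodes with a lead of at least 0.5, the levels of Piwil1 were 24.9 and 32.2 CPM. In early round spermatids (Fam24a, Prss46 and BC061237 highest) they were 3.98 and 4.04 CPM. Of set B, which borders on set A, Pabpc6, a testis gene of the poly(A)-binding protein family, was abundant in the led barcodes too, at 1220 and 1123 CPM against 1613 and 1690 in the Pabpc6 stage. Ccna1, the cyclin A1 that male meiosis needs, had 175 and 158 CPM against 495 and 497. Nutm2 had 0 UMIs in the led barcodes of either library, where 3 UMIs are the limit that a count of 0 allows, against 245 and 124 UMIs in the Pabpc6 stage.

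The KO label held in these cells. Alkbh5 had 98 UMIs over the WT led barcodes (19.2 CPM) and 0 over those of KO, where 3 UMIs are the limit that a count of 0 allows, which gives a log2 ratio of at most -5.08. Over all members it had 149 UMIs in WT and 1 in KO. Within WT, the gene had 61.6 CPM in spermatogonia, 42.8 in early spermatocytes from 7 UMIs, 19.2 in the led barcodes, 19.2 in the Pabpc6 stage and 8.80 in early round spermatids. Its level in the led barcodes of WT thus lay below that of spermatogonia and level with that of the Pabpc6 stage.

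The promoters of the 3 rule genes are shown with that of Gm14244, the gene whose levels over the 10 classes and both libraries were most like those of Piwil1 (Pearson r = 0.986 of log2(CPM + 1) over 20 points, which share the libraries, given as a description). They were searched on both strands for AACNGNC, a form of the MYB motif, because MYBL1 (A-MYB) is the known master regulator of pachytene transcription and of the pachytene piRNA loci. Each line gives the 250 bases before the RefSeq start in GRCm38.p6, 5′ to 3′ on the gene's strand, with matches of the motif or of its reverse complement in capitals. The windows are chr5:128735996-128736245 on the plus strand for Piwil1, chr13:78024652-78024901 on the plus strand for Pou5f2, chr1:156303349-156303598 on the minus strand for Tdrd5 and chr2:127691604-127691853 on the plus strand for Gm14244.
Piwil1: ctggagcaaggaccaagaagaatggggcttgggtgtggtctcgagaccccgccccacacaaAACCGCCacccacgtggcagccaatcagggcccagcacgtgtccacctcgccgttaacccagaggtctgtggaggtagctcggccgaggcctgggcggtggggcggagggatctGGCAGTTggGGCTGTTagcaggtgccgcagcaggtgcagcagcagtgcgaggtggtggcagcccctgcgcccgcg
Pou5f2: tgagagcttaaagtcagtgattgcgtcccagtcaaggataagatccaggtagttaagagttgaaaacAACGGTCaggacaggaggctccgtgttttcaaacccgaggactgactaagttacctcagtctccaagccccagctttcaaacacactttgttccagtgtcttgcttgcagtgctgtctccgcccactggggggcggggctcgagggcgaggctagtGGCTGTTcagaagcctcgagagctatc
Tdrd5: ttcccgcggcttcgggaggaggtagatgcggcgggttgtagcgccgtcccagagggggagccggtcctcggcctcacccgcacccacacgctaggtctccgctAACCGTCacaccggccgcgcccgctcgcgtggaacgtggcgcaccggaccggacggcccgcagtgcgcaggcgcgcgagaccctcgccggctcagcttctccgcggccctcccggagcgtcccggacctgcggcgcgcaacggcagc
Gm14244: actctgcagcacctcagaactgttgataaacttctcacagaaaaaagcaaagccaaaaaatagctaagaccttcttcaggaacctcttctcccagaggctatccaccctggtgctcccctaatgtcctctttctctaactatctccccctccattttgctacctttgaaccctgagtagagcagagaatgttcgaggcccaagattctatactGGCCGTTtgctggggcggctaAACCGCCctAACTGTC
The windows held 3 matches for Piwil1, 2 for Pou5f2, 1 for Tdrd5 and 3 for Gm14244. Of all 32536 distinct promoter windows of this length, 27.6% held a match. Of the 15 genes that led this stage over the 9 stages of sets B to J in WT, 11 had a window and 8 of these held a match, in addition to the named ones Cks2, Dut, Paip1 and Ccp110. The CRE half-site TGACG was found for 4 of the 11 genes and in 17.9% of all windows. The NRF1 motif, which was searched as well, was found for 3 of the 11 genes and in 3.77% of all windows. The counts of leading genes are per gene and the percentages are per window, so the 2 are not like measures. A match is a description of letters and no evidence of binding. Mybl1 itself had 57.7 CPM in the WT led barcodes and 68.8 in those of KO.

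Several genes besides those of the rule were much higher in these cells than in the mean of the 9 stages of sets B to J, which leave out spermatogonia, early spermatocytes and somatic cells. For this mean each stage was taken with all its barcodes, whatever their lead. In WT, the ratio was largest for Hmgb2, which encodes a chromatin protein of the high mobility group, at 480 against 8.15 CPM. Next to the rule genes came Cks2, a partner of cyclin-dependent kinases that meiosis needs, at 939 against 19.8 CPM, BC049730 at 490 against 11.2, Hist1h1t, the testis-specific linker histone H1t, at 181 against 4.10, and Dut, the dUTPase that keeps uracil out of DNA, at 272 against 7.58. In KO the same genes had 538, 847, 446, 162 and 260 CPM in the led barcodes. The Pabpc6 stage lay above the mean, and over all its WT barcodes Cks2 had 110 CPM and BC049730 69.3. Gm4763, Paip1 (a partner of the poly(A)-binding protein), AC166344.3, 2610001J05Rik, Ccp110 (a centriole protein) and Exosc7 (a subunit of the RNA exosome) completed the 15. Since the cells were cut from the same values, these differences are a description. The genes whose levels were most like those of Piwil1 were Gm14244, BC049730, Tdrd5, Commd6, Cks2, Piwil2, Gm17315 and Hemk1, with r of 0.974 to 0.986. These correlations used all barcodes of each class, the members without a set A UMI included. Piwil2 encodes MILI, another PIWI protein, and had 56.8 and 73.3 CPM in the led barcodes.

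The led barcodes held hardly any transcripts of the X chromosome, a measure that the rule did not use. Over the WT led barcodes 4195 of 5109825 UMIs were X-linked, a share of 0.0821% (0.0796 to 0.0846). In KO it was 14822 of 5291096, or 0.280% (0.276 to 0.285). In the barcodes with UMIs of both Prdm9 and Rad51ap2, which mark early spermatocytes (17 in WT and 90 in KO), the share was 2.35% and 2.79%. The led barcodes were thus 28.6-fold lower in WT and 9.97-fold lower in KO. Between the same classes the shares of the autosomes differed by factors of 0.408 to 1.44 in WT and 0.569 to 1.41 in KO. The lowest autosome in WT was chromosome 16, which carries Prm1 and Prm2, the protamine genes of elongating spermatids. Prm1 had 35688 CPM in the 17 early spermatocytes of WT and 2391 in the led barcodes. The spermatid genes thus took a high share of the few WT early spermatocytes, and the KO library gives the larger sample of this class.

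**Figure D2:**
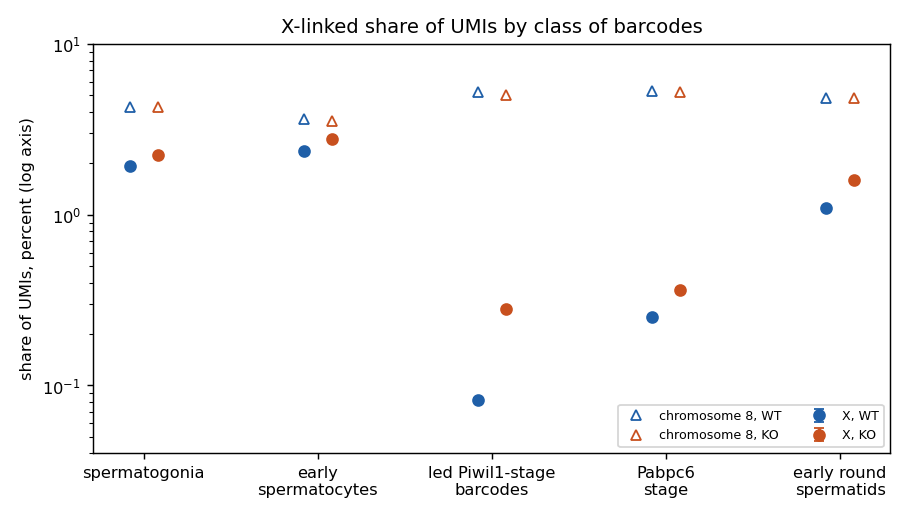
Share of UMIs of X-linked genes (filled circles) and, for comparison, of chromosome 8 genes (open triangles) on a log axis, in percent, over 5 classes of barcodes in the WT and KO libraries. Bars for the exact 95% interval are smaller than the symbols. The X share was lowest in the led Piwil1-stage barcodes, at 0.0821% in WT and 0.280% in KO, while the share of chromosome 8 was 3.63% to 5.34% in WT and 3.55% to 5.23% in KO over the 5 classes.

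Of the classes that follow, the next was still low and the one after it was not. In the Pabpc6 stage it was 0.251% in WT and 0.365% in KO, 3.06-fold and 1.30-fold above the led barcodes, and in early round spermatids, which have completed meiosis, it was 1.10% and 1.59%. Spermatogonia were at 1.92% and 2.23%. The Y-linked share in WT was 0.00254% in the led barcodes, 0.0697% in early spermatocytes, 0.0193% in the Pabpc6 stage and 0.148% in early round spermatids. Of the members without a set A UMI, 2.24% of the UMIs in WT and 2.48% in KO were X-linked, near the levels of cells in which the X is active. Over all members, these included, the X-linked share was 0.205% in WT and 0.767% in KO.

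What was left was spread over many X-linked genes, most of them at low levels. In the led barcodes 12 X-linked genes reached 10 CPM in WT and 68 in KO, against 316 and 336 in spermatogonia, and the 10 with the most UMIs held 32.5% of the X-linked UMIs of WT. Akap4, which encodes the main structural protein of the fibrous sheath of the sperm tail, had 266 UMIs, or 6.34% of all X-linked UMIs. It had 874 CPM in the WT early spermatocytes and 52.1 in the led barcodes, and its known site of expression is the elongating spermatid. H2afb1, a histone variant of spermatids, had 202 UMIs, and Hypm had 181. Ndufa1, which encodes a subunit of respiratory complex I, had 179 UMIs in the led barcodes and a level of 507 CPM in early spermatocytes. Gm6760, Prdx4, Cypt1, Tsga8, H3f3a-ps1 and 1700010D01Rik followed with 74 to 106 UMIs. The 10 spermatid genes taken as a sign of free RNA summed to 4492 CPM in the WT led barcodes and 2806 in those of KO, and to 27489 and 12831 in Leydig cells. The part of free RNA in the remaining X-linked counts was not tested.

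For 13 X-linked genes a related autosomal counterpart, in most pairs a retrogene, was also measured. The counterpart of Zfx, Zfa-ps, is a pseudogene by its symbol. In the led barcodes the autosomal gene had more UMIs in all 13 pairs in both libraries, and 4 of the X-linked genes had 0 UMIs in WT and 0 of them did in KO. In spermatogonia the autosomal gene had more UMIs in 9 of the 13 pairs in WT and in 8 in KO. The Pabpc6 stage was like the led barcodes, with the autosomal gene higher in all 13 pairs in WT and in 11 in KO. In early round spermatids it was higher in 10 and 9 pairs, and in early spermatocytes in 9 and 9. The 10 spermatid genes summed to 16053 and 8849 CPM in spermatogonia and to 55039 and 9849 CPM in early spermatocytes. In the led barcodes that sum was 4492 and 2806 CPM. The part of RNA from other cells in the counts of these pairs was not tested. Pgk1, the X-linked phosphoglycerate kinase of glycolysis, had 0 UMIs in the WT led barcodes and its autosomal copy Pgk2 had 1041. Pdha1, a subunit of pyruvate dehydrogenase, had 0 and Pdha2 had 1741. Gk, the glycerol kinase, had 0 and Gk2 had 3409. For these X-linked genes a count of 0 allows up to 3 UMIs. Cetn2, a centrin of the centriole, had 1 UMI against 16267 of Cetn1.

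Among the ribosomal protein pairs, Rpl10 had 13 UMIs in the WT led barcodes against 1658 of Rpl10l, Rpl39 had 6 against 9118 of Rpl39l, and Rps4x had 6 against 2246 of Rps4l. In spermatogonia of WT the balance of the first pair was the reverse, with 493 UMIs of Rpl10 against 84 of Rpl10l, while Rpl39 had 145 against 566 of Rpl39l and Rps4x 26 against 606 of Rps4l. In KO the X-linked members were higher in the led barcodes, with 237 UMIs of Rpl10, 79 of Rpl39 and 121 of Rps4x, while Rpl10l, Rpl39l and Rps4l had 1774, 8301 and 2657. These genes have many pseudogene copies, and reads can be split between them. Rbmxl2, the autosomal copy of Rbmx, which encodes an RNA-binding protein of germ cells, was over 2-fold lower in KO, at 212 UMIs (41.5 CPM) in WT and 74 (14.0 CPM) in KO. Mcts2 (464 UMIs), Cstf2t (136), Ubl4b (197), Utp14b (58) and Zfa-ps (54) had 0, 5, 12, 2 and 4 UMIs of their X-linked partners in WT.

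**Figure D3:**
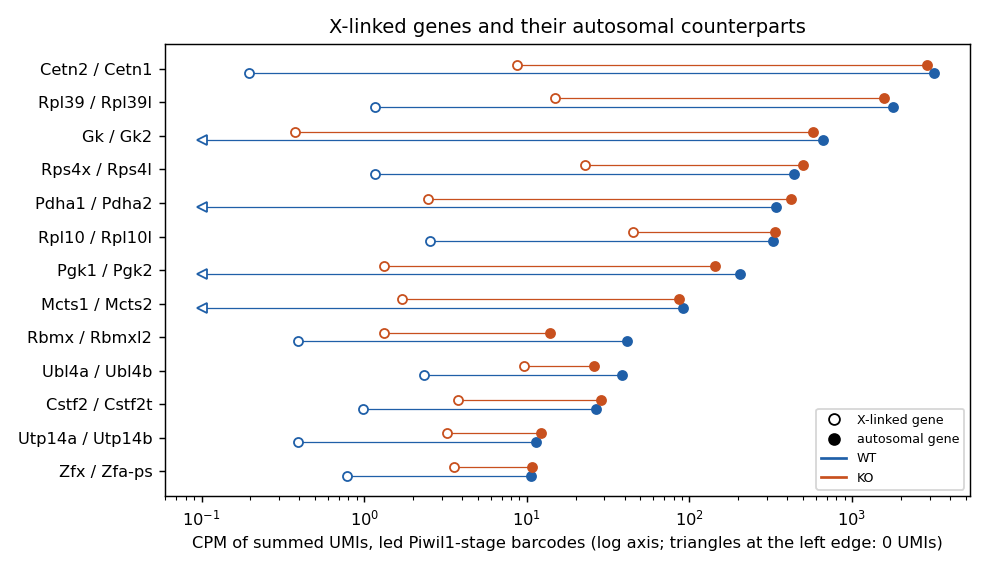
CPM of summed UMIs in the led Piwil1-stage barcodes (log axis) for 13 X-linked genes (open symbols) and their autosomal counterparts (filled), WT in blue and KO in orange, with a line between the members of a pair. Triangles at the left edge are genes with 0 UMIs. Each X-linked gene lies to the left of its counterpart, and the KO value of each X-linked gene lies to the right of the WT value.

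Between KO and WT, the X-linked share differed by more than that of any autosome. In the led barcodes it was 3.41-fold (3.30 to 3.53) higher in KO, where the autosomes differed by factors of 0.931 to 1.04. In the Pabpc6 stage the X-linked ratio was 1.45 and in early spermatocytes 1.19. It was 1.45 in early round spermatids and 1.67 to 2.04 in the 7 later stages, so that a higher X-linked share in KO was not limited to this stage. The difference was not spread evenly over the barcodes. The median share per led barcode was 0.0289% in WT and 0.0659% in KO, the upper quartile 0.0563% and 0.389%, and the 95th percentile 0.491% and 2.28%. Above 0.5% lay 13 of 256 led barcodes in WT and 73 of 329 in KO.

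The share was lower where more set A genes were detected. With all 3 set A genes detected, the X-linked share was 0.0597% in 140 WT barcodes and 0.0727% in 124 KO barcodes, a ratio of 1.22 (1.15 to 1.30). With 2 of them it was 0.0735% and 0.219%, a ratio of 2.98 (2.79 to 3.19). With 1 of them it was 0.482% in 24 WT barcodes and 1.44% in 78 KO barcodes, a ratio of 2.99 (2.80 to 3.18), and 54 of these 78 lay above 0.5%. The depth moved along, since the median was 24209.5 and 23416.5 UMIs with 3 genes and 7277 and 6914.5 UMIs with 1. Led barcodes without a set B UMI, 11 in WT and 63 in KO, had a share of 0.761% and 1.64%, and the others 0.0702% and 0.145%. How much of the genotype difference lies in barcodes of another stage with a stray set A UMI and how much in the stage itself was not tested.

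Markers of Leydig, Sertoli, macrophage and spermatogonial cells had higher sums in the KO led barcodes, while the sum of the 10 spermatid genes given above was lower there. The 10 Leydig markers summed to 6.07 CPM in the WT led barcodes, with 7 of 10 detected, and to 67.5 CPM in KO, with 10 of 10. Sertoli markers summed to 16.0 and 111 CPM and spermatogonia markers to 19.0 and 134 CPM. In the Pabpc6 stage the Leydig sums were 10.4 and 62.7 CPM and the spermatogonia sums 8.99 and 16.6 CPM. Macrophage markers had 5.48 and 16.4 CPM in the led barcodes. Their part in the differences below was not tested.

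Gene by gene, the comparison of KO with WT depended on which members were taken. Among all members, 2204 of the 11298 genes with at least 50 UMIs over both sums were at least 2-fold higher in KO (19.5%) and 350 at least 2-fold lower (3.1%). Among the led barcodes these were 572 of 9274 (6.17%) and 142 (1.53%). With equal weight of 3 bins by set B score, the led barcodes gave 394 and 151. Over all members the genes furthest up included Lcn2, at 0.926 CPM in WT and 478 in KO, Ptgds, the prostaglandin D synthase gene, at 1.39 and 513, Gstm1 at 18.1 and 307 and the immediate early gene Fos at 33.8 and 377. Ptgds had 25525 CPM in the Leydig cells of KO, and the members without a set A UMI count in these sums. Rps4x, Slc25a5, Psme2, Cd81, Gpx1 and the pseudogene Gm11942 completed the 10 furthest up. This ranking took genes with at least 100 UMIs and a UMI in at least 25% of the barcodes of a library.

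**Figure D4:**
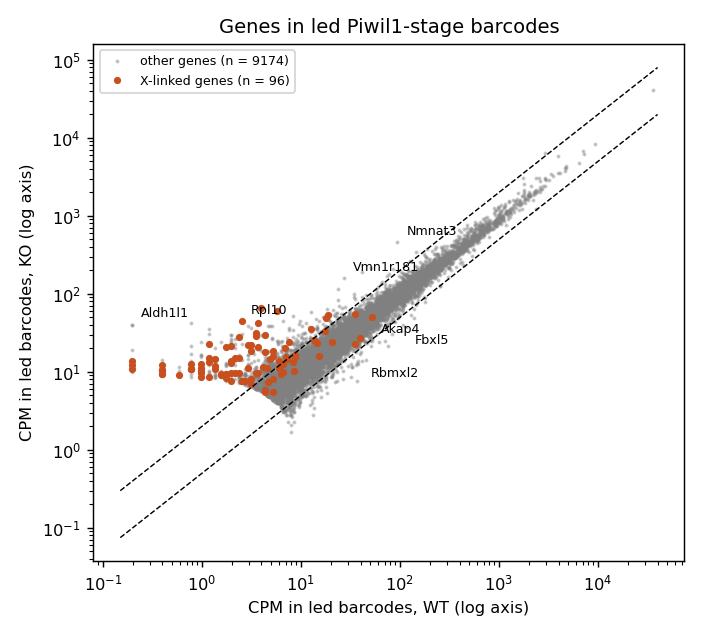
CPM over the led Piwil1-stage barcodes in KO (vertical) against WT (horizontal), both on log axes, for 9174 genes off the X (grey) and 96 X-linked genes (orange) with a UMI in each library and at least 50 UMIs over both sums, a minimum that cuts the cloud off at the lower left. Dashed lines are a 2-fold difference in either direction. Most genes lie between the lines, whereas 74 of the 96 X-linked genes lie above the upper line and 0 below the lower one.

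The X-linked genes stood apart from the others in this comparison as well. Of 96 X-linked genes with at least 50 UMIs, 74 were at least 2-fold higher in KO and 0 lower, and their median log2 ratio was 2.27, that of the autosomal genes 0.05. The minimum favours genes that are high in KO, since 858 X-linked genes had a UMI in these sums. Where at least 20 UMIs in WT alone were asked for, 17 of 42 X-linked genes were at least 2-fold higher and 0 lower, with a median of 0.89, against 3.17% higher, 2.44% lower and a median of 0.02 for the autosomal genes. Taf7l, a subunit of a germ cell form of the transcription factor TFIID, went from 19 UMIs in the WT sum to 221 in the KO sum. Scml2, a Polycomb group gene of germ cells, had 18 and 153. Tex11, which crossover formation needs, had 8 and 50.

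The genes ranked here had at least 100 UMIs and a UMI in at least 25% of the led barcodes of a library. Of these, the autosomal genes furthest up in KO were mostly higher in its other germ cell stages too. Lcn2, Fos, Psme2, Gstm1 and Cd81 missed this minimum, with log2 ratios of 4.63, 3.94, 3.77, 3.56 and 3.36 in the led barcodes. Aldh1l1, a folate enzyme gene of chromosome 6, had 1 UMI in WT and 213 in KO (40.3 CPM). It had 0 and 76.7 CPM in the Pabpc6 stage and 1.89 and 73.4 CPM in early round spermatids, but 104 and 155 CPM in Leydig cells. Nmnat3, an enzyme gene of NAD synthesis, had 482 UMIs (94.3 CPM) in WT and 2447 (462 CPM) in KO, a log2 ratio of 2.29 (2.15 to 2.44). Its levels were 88.3 and 467 CPM in the Pabpc6 stage and 71.2 and 331 CPM in early round spermatids. Vmn1r181, annotated as a vomeronasal receptor gene, had 27.2 and 159 CPM in the led barcodes and 37.9 and 190 CPM in the Pabpc6 stage.

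Of the other genes higher in KO, Ptprn2, a receptor tyrosine phosphatase gene, was highest at this stage in both libraries, with 12.5 CPM in WT and 58.6 in KO against 3.15 and 14.5 CPM in the Pabpc6 stage. Ptgds had 6 and 189 UMIs in the led barcodes and is a Leydig marker here. Hspe1, the mitochondrial co-chaperonin HSP10, had 23.5 and 115 CPM, and its log2 ratio of 2.30 was 1.58 with equal weight of the 3 bins. It had 764 and 1189 CPM in spermatogonia. The other 4, Gm11942, Rpl34-ps1, Pcna-ps2 and Gm3608, are pseudogenes whose reads can come from their parent genes.

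Under the same minimum, which left out Alkbh5, the 10 genes furthest down in the led barcodes were in part long noncoding. 4930500F10Rik, annotated as antisense, stood at 37.2 CPM in WT and 7.75 in KO. Ttll11, a polyglutamylase gene of microtubules, had 32.3 and 8.50 CPM, a log2 ratio of -1.92 (-2.43 to -1.44). Gm10638 had 75.5 and 21.5 CPM, and Fbxl5, which encodes the iron-sensing subunit of a ubiquitin ligase, had 115 and 37.2 CPM. Art1, Tnfsf13os, Gm13588, 4930511A02Rik, Gm3531 and Rbmxl2 had log2 ratios of -1.80 to -1.57. All 10 were lower in KO in the Pabpc6 stage and in early round spermatids as well, so the difference was not limited to this stage. Fbxl5 had 68.1 and 12.3 CPM in the Pabpc6 stage, Art1 50.9 and 10.2 and Gm10638 67.7 and 20.9. In early round spermatids Fbxl5 had 66.8 and 17.8 CPM, and in spermatogonia 117 and 77.0. These genes were named for their ratios, which are therefore a description, and the protocol's strand was not given in the sources used here for the antisense genes.

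The gene groups of meiosis were compared next, each by how many of its counted genes differed at least 2-fold between KO and WT in the led barcodes, beside 6.17% higher and 1.53% lower of all genes. Of the 16 pachytene genes that the rule did not use, all were counted and 1 was higher, with a median log2 ratio of -0.10. That gene was Calr3, a calreticulin of germ cells, with 13 and 42 UMIs. Ldhc had 9237 CPM in WT and 8286 in KO, Hspa2 had 776 and 791, Clgn had 913 and 1038, and Pgk2 had 204 and 143. Most of this group thus stood within 2-fold between the libraries.

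Of 13 counted genes of the synaptonemal complex and the chromosome axis, 12 had a ratio of KO to WT above 1, as had 5141 of all 9274 genes, 1 was at least 2-fold higher and 0 lower, and the median was 0.50 where that of all genes was 0.05. Sycp1, the transverse filament of the complex, had 474 CPM in WT and 766 in KO, a log2 ratio of 0.69. Sycp3, of the lateral element, had 491 and 604 CPM, and Hormad1, an axis protein that is removed as chromosomes synapse, had 897 and 1269 CPM. With equal weight of the 3 bins by set B score 8 of 13 were above 1, the median was 0.15 and no gene passed the fold. 4930447C04Rik was the gene past it, at 41.9 and 90.0 CPM.

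The recombination genes followed. Of 12 counted genes of break formation and strand invasion, 3 were at least 2-fold higher and 0 lower, with a median of 0.12. These were Mnd1, a partner of the strand exchange proteins, with 35 and 113 UMIs, Dmc1, the meiotic recombinase, with 17 and 46, and Zcwpw1, a reader of PRDM9-marked histones, with 73 and 186. Spo11, whose product makes the meiotic breaks, had 118 and 126 CPM. Weighted over the bins, 0 of the 12 passed the fold. Of 12 counted genes of crossover maturation, 1 was higher, the X-linked Tex11, and Mlh3 had 57.9 and 87.5 CPM. Of 11 genes of the sex body and the DNA damage response 2 were higher, Brca1 with 10 and 71 UMIs and the X-linked Scml2, whereas Atr had 156 and 150 CPM and H2afx 128 and 139.

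In the piRNA pathway, 21 of 23 genes were counted and 1 was past the fold. This was Tex15, needed for piRNA-directed silencing in fetal germ cells, with 24 UMIs in WT and 206 in KO. Tex15 had 880 CPM in the WT early spermatocytes and 1264 in those of KO. Mael had 1316 and 1271 CPM in the led barcodes, Gtsf1 959 and 941, Ddx25 902 and 866, Ddx4 372 and 487, and Tdrd1 145 and 148. The median was 0.33, and 0.09 with equal weight of the bins.

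Regulators of transcription and of RNA differed little. Of 13 counted regulators of transcription, 1 was higher, the X-linked Taf7l, and the median was -0.16. Gtf2a1l, a germ cell form of the factor TFIIA, was the lowest with 424 and 258 CPM, a log2 ratio of -0.72, which stayed within 2-fold. Crem had 316 and 296 CPM and Brdt 293 and 300. Of 13 counted genes of RNA storage and translation repression, 1 was higher, Dazl, which binds mRNA from the earliest germ cells on, at 146 and 340 CPM. Dazl had 1956 and 2976 CPM in early spermatocytes. Its log2 ratio of 1.22 in the led barcodes was 0.50 with equal weight of the bins. Of 16 counted regulators of cell division, 0 passed the fold in either direction, and the median was 0.06.

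The genes that write, erase and read m6A had a median log2 ratio of 0.30 over 15 counted of 19, a list that leaves out Alkbh5. Zc3h13, a subunit of the writer complex, was the 1 gene past the fold, with 53 and 127 UMIs, and its log2 ratio of 1.21 was 0.69 with equal weight of the bins. Fto, the other demethylase, had 66 and 53 UMIs. Mettl3, the catalytic writer, had 15 and 16 UMIs and was too low to be counted, and Mettl14 had 7.24 and 12.1 CPM. Ythdf2, a reader that promotes decay, had 55.2 and 67.8 CPM, Ythdc2, which meiotic entry needs, 15.5 and 26.6, and its partner Meioc 164 and 190.

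Of 13 counted testis metabolic isozymes, 0 passed the fold and the median was -0.16, with 4726 and 4343 CPM of Cox8c and 994 and 1063 of Cyct, the testis cytochrome c. Of 12 chaperone genes, 1 was higher (Calr3 again, which is in both lists), and of 8 histone genes of meiosis 1 was higher, Hist1h2aa with 15 and 39 UMIs. Of 13 mitochondrially encoded genes, all had a ratio above 1 and 1 passed the fold, with a median of 0.45, and of 82 counted ribosomal protein genes 4 were higher and 0 lower, with a median of 0.24. The 10 spermatid genes had a median of -0.37, with a ratio below 1 in 9 of them.

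Set against early spermatocytes, the led barcodes had higher levels of pachytene genes and lower levels of genes of earlier prophase. In WT, 48.6% of the 2764 genes counted were at least 2-fold higher in the led barcodes and 8.83% lower, and in KO 38.7% and 22.6% of 6500. The minimum of expected UMIs favours genes that are high in the led barcodes, most of all in WT. There the early spermatocytes held 163557 UMIs and the led barcodes 5109825, and 2 X-linked genes were counted against 85 in KO. The shares higher and lower thus depend in part on this minimum. The classes were cut from these cells, and early spermatocytes by their own markers, so the ratios are a description. Of 15 counted pachytene genes, 12 were higher and 1 lower in WT, and likewise 12 and 1 in KO. Hspa2 had 110 and 120 CPM in early spermatocytes of WT and KO against 776 and 791, and Ldhc had 2024 and 1028 against 9237 and 8286. The gene that went the other way was Tex101, which encodes a surface protein of germ cells, at 2690 and 3277 CPM against 593 and 789.

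Most genes of the chromosome axis were lower in the led barcodes than in early spermatocytes. Of the 13 counted in KO from the synaptonemal complex and axis list, 10 were at least 2-fold lower in the led barcodes and 0 higher, and in WT 9 of 10. Sycp1 had 3682 CPM in KO early spermatocytes and 766 in the led barcodes, and Smc1b, the meiotic cohesin subunit, had 2965 and 550. Of 12 counted genes of breaks and strand invasion in KO, 7 were lower and 2 higher, and of 4 counted in WT 1 was lower and 1 higher. Of 8 crossover genes counted in KO 4 were lower and 1 higher, and the 1 counted in WT did not pass the fold. Dmc1 had 459 and 8.69 CPM, while Psmc3ip, the partner of Mnd1, had 90.8 and 410. Of 20 counted piRNA genes in KO, 12 were higher and 3 lower, and Pld6, the nuclease that shapes piRNA ends, had 4.69 and 148 CPM.

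Against the Pabpc6 stage the differences were smaller. In WT 14.5% of the 9274 genes counted were at least 2-fold higher in the led barcodes and 11.7% lower, and in KO 21.2% and 10.6% of 9077. Of 14 counted axis genes in WT 8 were higher and 1 lower, and of 13 in KO 9 and 0. Tex12, of the central element, had 78.5 CPM in the WT led barcodes and 3.15 in the Pabpc6 stage. Of 21 piRNA genes, 9 were higher and 1 lower in WT, and 11 and 0 in KO, with Adad2 at 17.0 and 2.21 CPM and Pld6 at 155 and 53.8 CPM in WT. Hist1h1t had 181 CPM in the WT led barcodes and 7.73 in the Pabpc6 stage.

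Regulators of division went the other way. Of 16 counted in WT, 4 were at least 2-fold lower in the led barcodes and 0 higher, and of 17 in KO 7 and 0. Ccnb1, cyclin B1 of the division kinase, had 89.0 CPM in the WT led barcodes and 499 in the Pabpc6 stage, Plk1 had 38.7 and 160, and Cdc25c had 1.76 and 20.8. Cdk1, the kinase itself, had 139 and 154 CPM. The pachytene genes as a group hardly differed, with 3 of 15 higher and 0 lower in WT and a median of 0.08. For the X chromosome, 75 of 104 genes were at least 2-fold lower in WT led barcodes than in the Pabpc6 stage, against 10.9% of the autosomal genes. In KO 52 of 150 X-linked genes were lower and 36 higher.

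Within the led barcodes the levels moved with the set B score, which the rule used in part. The barcodes were split at 2 cut points set on both libraries together, which gave 59, 105 and 92 in WT and 136, 90 and 103 in KO. From the lowest to the highest bin of WT, Sycp1 had 1843, 355 and 138 CPM and Hormad1 2575, 713 and 514. In KO Sycp1 had 2020, 446 and 138 CPM. Meiob, which binds single-stranded DNA in recombination, had 89.1, 15.1 and 7.01 CPM in WT. The genes of early prophase thus stood highest where set B was lowest, in both libraries. The depth moved along with the bins, with medians of 12022, 17824 and 26705 UMIs in WT and 9070, 15620.5 and 23396 in KO. The part of depth in the order of the bins was not tested.

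Genes of the later stage had the reverse order. Aurka, the kinase of the division spindle, had 94.4, 175 and 391 CPM in WT and 89.2, 155 and 405 in KO. Pgk2 had 99.6, 146 and 282 CPM in WT, and in KO 52.9 CPM in the lowest and 237 in the highest bin. Ccnb1 had 36.7, 22.4 and 158 CPM in WT, with its lowest value in the middle. Of the rule genes, Piwil1 had 349, 272 and 141 CPM in WT and Tdrd5 185, 114 and 71.3, while Pou5f2 had 27.5, 230 and 345, so the 3 markers did not peak in the same barcodes.

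**Figure D5:**
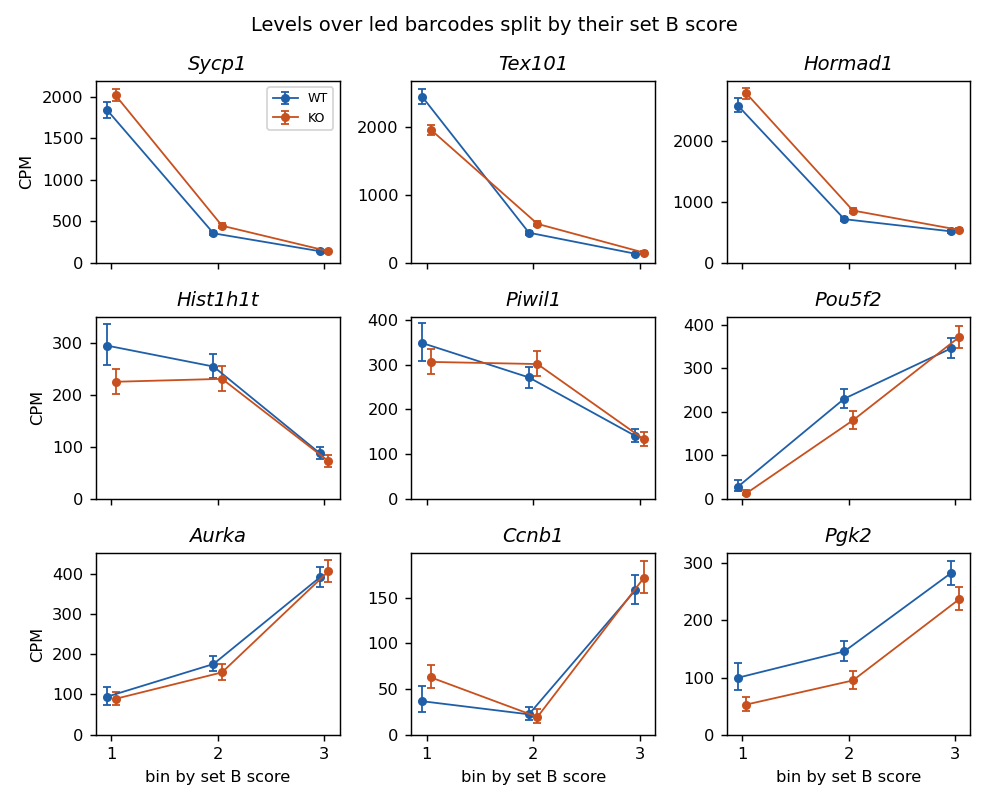
Level in CPM (vertical, from 0) of 9 genes over the led barcodes in 3 bins by set B score, WT in blue and KO in orange, with exact 95% Poisson intervals. Sycp1, Tex101 and Hormad1 were highest in bin 1, Aurka, Ccnb1 and Pgk2 in bin 3, and the rule genes Piwil1 and Pou5f2 ran in opposite directions.

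The X-linked genes stood in the order of Sycp1. Their sums were 2366, 813 and 342 CPM from bin 1 to bin 3 in WT and 7080, 1875 and 546 CPM in KO, so they were lowest where set B was highest, and KO stood above WT in each bin by factors of 2.99, 2.31 and 1.597. KO had 136 of its 329 led barcodes in bin 1 and WT had 59 of 256. The 15 genes of the synaptonemal complex and axis summed to 8906, 3438 and 2438 CPM in WT and to 9509, 4034 and 2769 CPM in KO. The piRNA pathway summed to 5727, 5142 and 4634 CPM in WT and to 5670, 5499 and 4958 CPM in KO, a smaller range over the bins than that of the axis genes.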

How the data were processed

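Single-cell RNA of testis was measured in 1 WT and 1 Alkbh5-/- library of a microwell kit. The deposited values are UMI counts per gene and barcode, which the authors made by trimming (fastp 1), alignment (STAR 2.5.3a) and counting per gene (featureCounts 1.6.2), per the labels and methods. The methods name a human genome build for this mouse series, so chromosomes were taken by symbol from GENCODE vM21 (GRCm38), which matched 35502 of 36547 symbols. The strand setting is not given in the sources used here. The tables hold 5756 and 7012 barcodes with medians of 10905.5 and 9117.5 UMIs.

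UMIs were summed per class and library, with pandas 2.3.3 and scipy 1.17.1 in Python 3.11.15, and given per 1000000 UMIs (CPM). Intervals are exact 95% Poisson, Clopper-Pearson or conditional binomial ones. Genes with at least 50 UMIs over both sums were counted between genotypes, and with at least 10 expected UMIs in the smaller sum between stages. A gene was past the fold at a log2 ratio of at least 1 in size. A count of 0 was set to 3 UMIs for a bound. Classes of other cells needed UMIs of both their markers, and those of other stages a lead of at least 0.5. Doublets were marked by Scrublet (scanpy 1.11.5, 30 components, expected rate 0.06), and were kept, and left out as an alternative. The counting was tested on simulated data.

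The genes named are the 15 leading genes in WT, the 8 most like Piwil1, the 10 furthest apart in each direction among genes with at least 100 UMIs and a UMI in at least 25% of the barcodes of a library, the 10 X-linked genes with most UMIs, and the lists. Other genes were chosen after their values were seen. The members and lists were chosen with earlier results of these data known.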

Additional observations from a re-analysis of the deposited data

How the results depend on the processing

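With 1 library per genotype, no value here measures the spread between animals, and there was no replicate to leave out. No paired analysis was possible because each genotype had 1 library. A low count of an X-linked gene and free RNA of other cells cannot be told apart at this depth. The settings that ask for a set A UMI, or combine a lead of at least 0.5 with another choice, were chosen after seeing the data.

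Allowing 2 excluded markers gave shares of 8.27% in WT and 26.5% in KO and a ratio of 3.20. Allowing them and asking for a set A UMI gave 5.49% and 7.33%. A lead of at least 0.5 gave 4.45% and 4.69% and a ratio of 1.05. A set A UMI gave 5.42% and 5.36% and a ratio of 0.989, below 1 but with an interval of 0.849 to 1.15. With the barcodes that entered the rule as denominator the KO share was 15.1% and the ratio 2.29.

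Of genes at least 2-fold higher and lower in KO over all members, 2204 and 350 in the report, there were 5167 and 1553 with a minimum of 1 UMI in each sum, and 777 and 135 with at least 200 UMIs, settings that change how many genes are counted. A lead of at least 0.5 gave 572 and 142, a set A UMI 576 and 222, and the lead without doublets 539 and 161. The lead with equal weight of 3 bins gave 394 and 151, and the lead with equal weight per barcode 762 and 205. Equal weight of 3 bins over all members gave 616 higher, equal weight per barcode 846 lower, and at least 2 set A genes 171 higher. Beyond the membership that the settings define, the cause was not tested.

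The X-linked share over all members, 0.205% in WT and 0.767% in KO, was 0.413% and 1.33% with equal weight per barcode, 0.713% and 0.905% with equal weight of 3 bins, 0.212% and 0.787% without mitochondrial and ribosomal protein genes in the totals, and 0.175% and 0.746% without doublets. With at least 5000 UMIs per barcode the KO value was 0.739%. It was 0.0821% and 0.280% with a lead of at least 0.5, 0.105% and 0.272% with a set A UMI, and 0.0838% and 0.127% with at least 2 set A genes. The lead gave 0.117% and 0.317% with the bins, 0.117% and 0.485% per barcode, and 0.0584% and 0.241% without doublets. KO stood above WT in each of these.

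The log2 ratios of Dmc1 and Zcwpw1 over all members, 1.48 and 1.40, were -0.46 and -0.28 with equal weight of the 3 bins. Of the ratios of single genes and lists under the alternatives, 1294 moved by less than their counting interval and 516 by more.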
